A study of Homo sapiens with 12 samples.

Results

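The genes of the ISG15 conjugation and removal system were followed in A549 cells after transfection with parts of SEMA5A. The system was taken as 6 genes: the modifier ISG15, its activating enzyme (E1) UBA7, its conjugating enzyme (E2) UBE2L6, the ligases (E3) HERC5 and HERC6, and the protease USP18. All probes that the platform annotation gives to these symbols were used, 8 probes for 6 of the 20046 gene symbols in the annotation, 3 of them for UBE2L6 and 1 for each of the other 5 genes. The members were chosen by pathway with earlier results of these arrays known, and were selected on their measured log2 differences between the constructs and the control plasmid. Differences from the control plasmid are therefore given as a description, with no p-value, and the counts of calls among them support nothing.

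ISG15 is a small protein with tandem ubiquitin-like domains that interferons induce strongly. UBA7 activates it, UBE2L6 carries it, and in human cells HERC5, which sits on ribosomes, attaches it to newly made proteins. In mice that role falls to Herc6, while human HERC6 is a close relative of HERC5 with less known activity on ISG15. USP18 removes ISG15 from proteins and also binds the interferon receptor chain IFNAR2, where it dampens signalling, and free ISG15 stabilises human USP18.

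A549 is an established cell line of human lung carcinoma. The 4 groups received plasmids for full-length SEMA5A (Full), its extracellular domain (ECD), its intracellular domain (ICD) or a control plasmid (Empty), all by transient transfection with the same reagent, and RNA was taken 24 h later. SEMA5A is a transmembrane semaphorin, a guidance protein that signals through plexin receptors. There were 12 one-colour bead arrays, 3 to a group. The labels do not say if the arrays of a group stem from separate transfections, so the p-values cover array-to-array spread that could be purely technical.

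Above background here means a detection p under 0.05, which 18659 to 20366 of the 47323 probes met on each array. Arrays of a group correlated across features at r = 0.989 to 0.993 for Full and at 0.994 to 0.996 for the other groups, so the Full arrays were the least alike. The 95th percentile of intensity, over the median of the undetected probes, was 9.80 to 10.1 on the ECD arrays and 8.54 to 9.55 on the other 9. The part of this brightness in the differences below was not tested beyond the scalings named beside them. The 2 SEMA5A probes gave 0 of 24 values above background, so the plasmid labels and the construct levels could not be checked from them. Of the epithelial markers KRT8 and KRT18 were above background on all 12 arrays, KRT19 and CDH1 on 0 and EPCAM on 2 by its best probe. Of the blood cell markers PTPRC and LYZ were above background on 1 array, CD3E on 0, CD14 on 5 and CD68, which many cell types express, on 12. The endothelial markers PECAM1, CDH5 and VWF and the fibroblast markers COL3A1 and PDGFRB were above background on 0 arrays, and COL1A1 on 4.

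The sequences just upstream of the start sites of 3 members are shown because these genes moved to different degrees across the constructs. RefSeq (GRCh38.p14) promoters were matched for 4 of the 6 genes, ISG15, UBE2L6 (2 start sites), HERC5 and HERC6. UBA7 and USP18 had none in the table used. The 250 bases before the start site were searched on both strands for the interferon-stimulated response element written as GAAA, any 2 bases and GAAA again, with overlapping matches allowed, and for the gamma-activated site written as TTCNNNGAA, which reads the same on both strands. In the lines below, 5′ to 3′ on the strand of the gene, capitals mark every base of a response element match.
ISG15, chr1:1013247-1013496, plus strand: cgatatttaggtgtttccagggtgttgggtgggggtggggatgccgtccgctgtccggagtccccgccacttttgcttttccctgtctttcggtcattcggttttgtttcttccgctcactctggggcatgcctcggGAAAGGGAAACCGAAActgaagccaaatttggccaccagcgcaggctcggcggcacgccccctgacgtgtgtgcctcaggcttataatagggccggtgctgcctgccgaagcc
HERC5, chr4:88456869-88457118, plus strand: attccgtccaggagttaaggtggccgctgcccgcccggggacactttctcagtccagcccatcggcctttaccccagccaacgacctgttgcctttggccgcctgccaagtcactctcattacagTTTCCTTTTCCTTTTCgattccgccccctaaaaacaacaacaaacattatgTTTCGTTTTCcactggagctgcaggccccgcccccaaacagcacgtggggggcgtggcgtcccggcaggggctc
HERC6, chr4:88378602-88378851, plus strand: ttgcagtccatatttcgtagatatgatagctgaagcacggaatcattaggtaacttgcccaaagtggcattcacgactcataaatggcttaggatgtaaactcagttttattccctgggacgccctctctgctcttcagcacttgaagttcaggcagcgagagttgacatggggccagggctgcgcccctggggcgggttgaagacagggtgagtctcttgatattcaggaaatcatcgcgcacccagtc

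The ISG15 window held 2 overlapping matches on the strand of the gene, GAAAGGGAAA from base -113 and GAAACCGAAA from base -107, counted from the start site. In the HERC5 window 3 matches lay on the other strand, TTTCCTTTTC from bases -125 and -119 and TTTCGTTTTC from base -74. The HERC6 window had 0 matches, as did both UBE2L6 windows, which are not shown. Among all 35116 promoter windows of this length 3.02% held the response element. The gamma-activated site was found in 0 of the 5 windows of the members, and in 6.57% of all windows. HERC6 and HERC5 are neighbours on chromosome 4 with 0 protein-coding genes between them in the RefSeq table. A match is a description of letters only, and the absence of one says nothing on binding outside these windows.

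Across the 4 groups the genes other than UBA7 shared an order of group means, by the brightest probe of each. The mean was highest with ECD, Full came next, ICD after it and Empty lowest. For UBA7 only ECD could be told from background, and its ICD and Empty means were both 4.43. For HERC5 the Full and ICD arrays overlapped, with a difference of 0.11 that was not called. The HERC6 difference between Full and ICD, 0.48, was not called either. The members differed in how far ICD lay above Empty and Full above ICD. Values are normalized log2 intensities, in which 1 unit is a doubling, and they compare arrays for a given probe, not genes with each other.

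**Figure D1:**
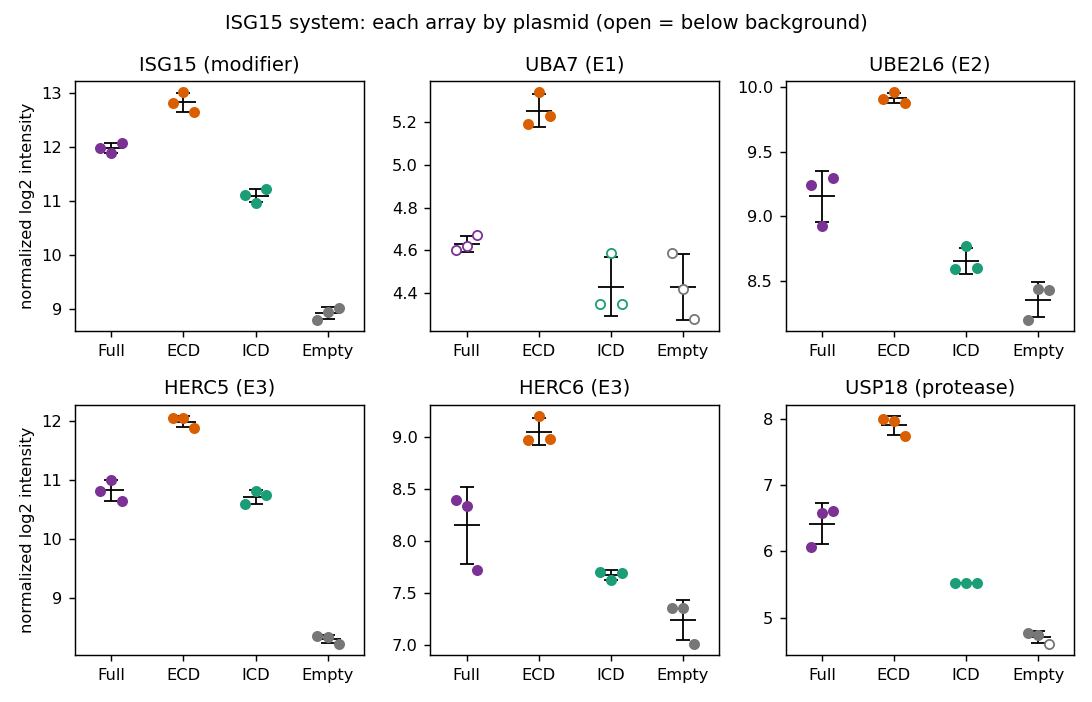
Normalized log2 intensity (vertical axis, own range for each gene) of the 6 ISG15 system genes on each of the 12 arrays, grouped as Full, ECD, ICD and Empty; points are arrays, horizontal marks and bars are the mean and SD of 3 arrays, and open points were below background. ECD lay above all other arrays for each of the 6 genes, and UBA7 was below background on all 9 arrays outside ECD.

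The modifier ISG15 was read by 1 probe (ILMN_2054019), which was above background on all 12 arrays. Its normalized log2 intensities were 11.98, 11.88 and 12.08 with Full, 12.81, 13.01 and 12.65 with ECD, 11.11, 10.97 and 11.22 with ICD and 8.80, 8.95 and 9.02 with Empty. In the deposited linear intensities this was 4098.6 to 4528.0 with Full, 6514.6 to 8255.7 with ECD, 2058.2 to 2512.0 with ICD and 527.9 to 582.8 with Empty. No 2 groups overlapped, and every Empty array lay far below the construct arrays. Against Empty, ISG15 was 3.05 ± 0.11 higher with Full, 3.90 ± 0.11 with ECD and 2.17 ± 0.11 with ICD (log2 difference ± SE, n = 3 arrays each).

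HERC5, the human ISG15 ligase, was also read by 1 probe (ILMN_1729749) above background on every array. Its log2 intensities were 10.82, 11.01 and 10.65 with Full, 12.05, 12.05 and 11.89 with ECD, 10.59, 10.82 and 10.75 with ICD and 8.34, 8.33 and 8.22 with Empty. The Full and ICD arrays of HERC5 were interleaved, while ECD lay above both and Empty below. Relative to Empty the differences were 2.53 ± 0.11 with Full, 3.70 ± 0.11 with ECD and 2.42 ± 0.11 with ICD (log2, SE, n = 3). HERC6 (ILMN_1654639), its neighbour and relative, differed far less from Empty. Its log2 intensities were 8.39, 8.33 and 7.72 with Full, 8.97, 9.20 and 8.98 with ECD, 7.70, 7.62 and 7.69 with ICD and 7.35, 7.35 and 7.01 with Empty. Full replicate 3 lay far below the other Full arrays and just above the highest ICD array. The HERC6 differences from Empty were 0.91 ± 0.15 with Full, 1.81 ± 0.15 with ECD and 0.43 ± 0.15 with ICD (log2, SE, n = 3).

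UBE2L6, the E2 enzyme, had 3 probes. The brightest (ILMN_1769520) gave 9.24, 8.93 and 9.30 with Full, 9.91, 9.96 and 9.88 with ECD, 8.59, 8.77 and 8.60 with ICD and 8.20, 8.44 and 8.43 with Empty. Its groups did not overlap, but ICD and Empty were close, 8.65 ± 0.10 and 8.35 ± 0.14 (mean ± SD, n = 3). Against Empty it was 0.80 ± 0.11 higher with Full, 1.56 ± 0.11 with ECD and 0.30 ± 0.11 with ICD (log2, SE). A second probe for the same transcript record (ILMN_1703108) was above background on 12 arrays but much dimmer, at intensities of 114.8 to 161.5, and differed from Empty by 0.35, 0.64 and -0.02 with Full, ECD and ICD. The third (ILMN_2252495), for another UBE2L6 transcript record, was above background on 0 of 12 arrays, with a lowest detection p of 0.351.

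The E1 enzyme UBA7 (ILMN_1794612) was the dimmest member. Its detection p was 0.00649, 0.0026 and 0.00519 on the ECD arrays, against 0.0571 to 0.1 with Full, 0.0701 to 0.443 with ICD and 0.0818 to 0.714 with Empty. Log2 intensities were 4.60, 4.62 and 4.67 with Full, 5.19, 5.34 and 5.23 with ECD, 4.35, 4.59 and 4.35 with ICD and 4.59, 4.42 and 4.28 with Empty. It was at least 1.48-fold higher with ECD than with Empty on the background-corrected scale. This bound sets the ECD mean against the lowest signal called above background on the Empty arrays, or the UBA7 signal if that was higher. No fold is given for Full or ICD against Empty, since both groups of each pair were below background.

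USP18, the protease, was read by 1 probe (ILMN_3240420). It gave 6.07, 6.58 and 6.61 with Full, 8.00, 7.96 and 7.74 with ECD, 5.53, 5.52 and 5.52 with ICD and 4.77, 4.74 and 4.61 with Empty, where 2 of 3 arrays were above background. The 4 groups did not overlap, and the ICD arrays lay within 0.01 of each other. Against Empty, USP18 was 1.71 ± 0.13 higher with Full, 3.19 ± 0.13 with ECD and 0.81 ± 0.13 with ICD (log2, SE, n = 3). USP18 has a near copy, USP41, and whether the probe tells them apart could not be checked here, because probe sequences were not used.

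In limma at an adjusted p under 0.05 over all 15338 features, 5 members were called higher with Full than with Empty, 6 with ECD and 3 with ICD, the last being ISG15, HERC5 and USP18. The shares of all features called higher were 0.808%, 6.04% and 3.33%. Since the members were chosen with these differences known, nothing is read from these counts. The 3 comparisons share the Empty arrays. In RNA from whole cultures, more responding cells and more RNA per cell cannot be told apart. Without background correction the differences of dim members shrank, with USP18 at 0.64, 1.56 and 0.25 and UBA7 at 0.26 with ECD, against 3.69 for ISG15 with ECD. Folds of dim and bright members are thus not on an equal footing. The count of 5 with Full includes HERC6, which dropped out without Empty replicate 3 (log2 0.80) and when only the Full and Empty arrays were fitted (log2 0.91).

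The comparison of ECD with ICD asks whether the 2 domains alone differed in their effect on the system. The 5 members above background in every construct group were all higher with ECD than with ICD, by 1.26 to 2.38 on the log2 scale, with a median of 1.38. Over all features 1.11% were called higher and the median was -0.02. The 3 comparisons between constructs hold no Empty arrays, but use the same construct arrays as the differences the members were selected on, whose sizes were known. Each comparison is the gap between 2 of those known differences, so its p-values are not independent of the selection. USP18 differed by 2.38 ± 0.13 or 5.19-fold (± SE, 3 arrays a group, adjusted p = 3.5e-08 in limma), and ISG15 by 1.72 ± 0.11 or 3.30-fold (adjusted p = 1.5e-07). The ligases were alike in size here, HERC5 2.43-fold and HERC6 2.61-fold higher (adjusted p = 2.7e-06 and 6.7e-05). UBE2L6 was 2.40-fold higher (adjusted p = 5e-06), and by its dimmer probe 0.66 ± 0.14 on the log2 scale (adjusted p = 0.024 in a fit of every entering probe). UBA7 was at least 1.5-fold higher on the background-corrected scale. That is a description with no test, because UBA7 entered the fit through the ECD arrays alone. Without background correction its log2 difference was 0.26. For each of the 5 members the 3 ECD arrays lay above the 3 ICD arrays, as they did for 10.8% of all features. Median scaling, which moved the median of all features to 0.09, gave 1.73 for ISG15 and 2.52 for USP18. Without background correction the order of the members turned, with ISG15 at 1.69, USP18 at 1.32 (adjusted p = 5.9e-09) and HERC5 at 1.24.

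**Figure D2:**
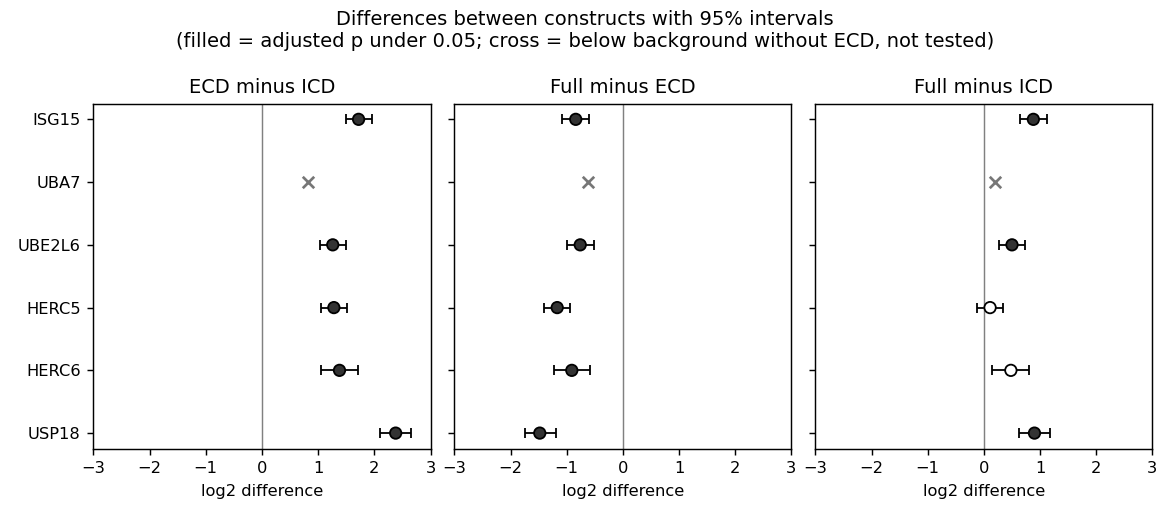
Log2 differences (horizontal axis) of the 6 members for ECD minus ICD, Full minus ECD and Full minus ICD, with 95% intervals from the limma fit; filled points had an adjusted p under 0.05. Crosses mark UBA7, which was below background outside ECD and was not tested. The other 5 are above 0 for ECD minus ICD and below 0 for Full minus ECD, while for Full minus ICD ISG15, UBE2L6 and USP18 are filled and HERC5 lies at 0.11.

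Full against ECD asks whether the full-length protein did as much as its extracellular domain alone. The 5 members above background in every construct group were lower with Full, with log2 differences of -1.48 to -0.76, beside 10.2% of all features called lower. The median of these members was -0.91 and that of all features 0.02. This comparison changed many features, so a call is less uncommon here. USP18 fell by 1.48 ± 0.13 on the log2 scale or 2.78-fold (SE, n = 3 each, limma adjusted p = 1.3e-05). HERC5, the ligase, fell by 1.17 ± 0.11 (adjusted p = 1.7e-05). HERC6 fell by 0.91 ± 0.15, ISG15 by 0.84 ± 0.11 and UBE2L6 by 0.76 ± 0.11 (adjusted p = 0.0025, 0.00057 and 0.0012). UBA7 was at least 1.47-fold lower on the background-corrected scale, again with no test, and at -0.18 (log2) without background correction. The dimmer UBE2L6 probe differed by -0.29, with a 95% interval from -0.59 to 0.01. Full arrays lay below ECD arrays without overlap for these 5 members and for 17.6% of all features. Of 2 tested genes on the blood cell list, with a median of -0.14, 1 was called lower with Full than with ECD. It was CD68, which many cell types express, at -0.28 ± 0.09 (adjusted p = 0.046). Its part in the member differences was not tested. Without background correction HERC5 had the larger difference, -1.13 against -0.92 for USP18 (adjusted p = 5.7e-07 and 7.7e-07).

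Full against ICD did not give the same call for every member. ISG15 was 1.84-fold higher with Full (0.88 ± 0.11, SE, n = 3 each, limma adjusted p = 0.0015) and USP18 1.86-fold (0.90 ± 0.13, adjusted p = 0.0035). Without background correction ISG15 was at 0.86 and USP18 at 0.39, both still called (adjusted p = 0.00014 and 0.0035). UBE2L6 was 1.42-fold higher by its brightest probe (0.50 ± 0.11, adjusted p = 0.024). Its dimmer probe was at 0.36 and not called (adjusted p = 0.13 in a limma fit of every entering probe). ISG15, USP18 and UBE2L6 were thus the 3 of 6 members called higher, and 2.01% of all features. HERC5 differed by 0.11, with a 95% interval from -0.12 to 0.34 (adjusted p = 0.56). HERC6 differed by 0.48, with an interval from 0.15 to 0.80 (adjusted p = 0.079). UBA7 was below background in both groups. The HERC6 result depended on Full replicate 3: without that array the difference was 0.69 and called (adjusted p = 0.018). It also depended on the processing, as with all arrays kept 0.48 was called under another limma variance model (adjusted p = 0.03). UBE2L6 was not called without Full replicate 1 or 3 or ICD replicate 1 or 3 (0.43 to 0.48). With only these 6 arrays in the fit ISG15 alone was called, with UBE2L6 at adjusted p = 0.12 and USP18 at 0.051, and 22 of all features were called in place of 767.

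The differences of ECD and ICD from Empty, added together, exceeded that of Full. Full lay below that sum by 3.59 ± 0.15 for HERC5, 3.02 ± 0.16 for ISG15, 2.29 ± 0.18 for USP18, 1.34 ± 0.22 for HERC6 and 1.06 ± 0.16 for UBE2L6 (log2, SE). These 5 members were called lower by their brightest probes, and 12.3% of all features, which is printed for scale only. The dimmer UBE2L6 probe was at -0.28, with an interval from -0.7 to 0.15. It was not called in a limma fit of every entering probe, so the UBE2L6 departure rests on its brightest probe. As the rise over Empty was known when the members were chosen, these departures are a description. UBA7, below background in 3 of 4 groups, is given no size. USP18 was above background on 2 of 3 Empty arrays. Without background correction the departures were -3.29 for HERC5, -2.83 for ISG15, -1.17 for USP18, -1.03 for HERC6 and -0.93 for UBE2L6.

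Members were also compared with each other for likeness. It was measured as the root mean square difference over the 12 arrays between log2 values, each less its own Empty mean, so that 0 is identical. The value was 0.35 for ISG15 and HERC5, 0.29 for UBE2L6 and HERC6, and 1.6 for the neighbouring ligases HERC5 and HERC6. Because a small change keeps this distance small, pairs of weakly changing genes are favoured by it. Within the ISG15 and HERC5 pair, looked at after the values were seen, the balance was set out by construct. The ISG15 change less the HERC5 change was 0.53, 0.24 and 0.80 on the Full arrays, 0.12, 0.33 and 0.14 with ECD, -0.11, -0.48 and -0.15 with ICD and -0.17, -0.01 and 0.18 with Empty. All Full and ECD arrays were above 0, which is the Empty mean, and all ICD arrays below it. Only the Full arrays lay outside the range of the Empty arrays as a group. The ECD arrays overlapped both Full and Empty, and the ICD arrays overlapped Empty. This balance was not tested. The means were 0.52 ± 0.28 with Full and -0.25 ± 0.20 with ICD (log2, SD, n = 3).

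**Figure D3:**
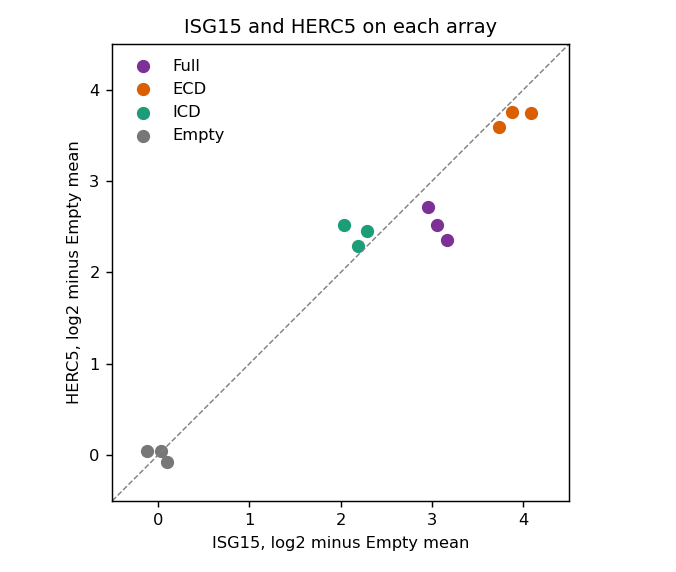
Log2 intensity less the Empty mean of ISG15 (horizontal axis) and HERC5 (vertical axis) on each of the 12 arrays, coloured by plasmid, with a dashed line of equal change. On the HERC5 axis the Full arrays, at 2.35 to 2.72, overlap the ICD arrays, at 2.29 to 2.52. On the ISG15 axis these groups are separated, and the ICD arrays lie above the line and the Full arrays below it.

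Among the 10911 other features with a symbol, the 2 nearest to each member were found by the same measure. For ISG15 they were IFI44 (0.25) and HERC5 (0.35), and for HERC5 ISG15 and IFI44 (both 0.35). USP18 was nearest to PARP9 (0.25) and OAS3 (0.26), whose differences from Empty were 1.55 and 1.58 with Full, 2.87 and 2.91 with ECD and 0.89 and 0.66 with ICD. UBE2L6 was nearest to IFI35 (0.15) and TENT5A (0.20), and HERC6 to ZNFX1 (0.24) and IFIT5 (0.25). UBA7 was nearest to the immunoproteasome subunit PSMB8 and to MLKL (both 0.16). IFI44, IFI35, IFIT5 and OAS3, which makes a messenger that activates an antiviral nuclease, are textbook interferon-induced genes.

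Partners of the system were read from lists chosen for their roles. Of the receptor chains, kinases and transcription factors upstream, 5 of 7 listed genes were tested. IRF9, the DNA-binding subunit of the factor that binds the response element, was higher with ECD than with ICD by 1.5 ± 0.10, lower with Full than with ECD by 0.68 and higher with Full than with ICD by 0.81 (log2, limma adjusted p = 3.2e-07, 0.0016 and 0.0016). The receptor chains IFNAR1 and IFNAR2 and the kinases JAK1 and TYK2 were not called in these comparisons and are named after their values were seen, with ECD minus ICD at 0.02, -0.13, -0.11 and 0.28. IFNAR2 is the receptor chain that USP18 binds. TRIM25, another ligase reported for ISG15, was higher with ECD than with ICD by 0.84 ± 0.10 and with Full than with ICD by 0.44, and fell by 0.41 with Full against ECD (adjusted p = 9.6e-05, 0.024 and 0.012). ARIH1, a further reported ligase, was not called (0.24 for ECD minus ICD, also named after its values were seen).

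Proteins reported to carry ISG15 gave 11 tested genes of 13. With ECD against ICD 4 were called higher and 0 lower, beside 1.11% higher among all features. They were the RNA sensors IFIH1 (3.80-fold, limma adjusted p = 2e-07) and RIGI (3.05-fold, 1.8e-06), the antiviral GTPase MX1 (at least 2.54-fold, as it was below background with ICD) and the kinase EIF2AK2 (2.45-fold, 3.4e-05). The MX1 call is a description only, because MX1 entered the fit through constructs where it was higher than with ICD. All 4 are themselves interferon-induced. With Full against ECD 5 fell and 1 was higher, beside 10.2% lower and 8.08% higher among all features. The list's median was 0.11 for ECD minus ICD and -0.31 for Full minus ECD.

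Relatives of the members, most of which serve other modifiers, were counted too. The USP proteases here include those reported to react with ISG15, which are given again below. For ECD against ICD 0 of 6 other E1 enzymes, 0 of 23 other E2 enzymes, 0 of 4 other HERC ligases, 0 of 30 other USP proteases and 0 of 8 other ubiquitin-like modifiers passed, with medians of -0.01 to 0.10, beside 1.71% of all features called in either direction in limma. At an unadjusted p under 0.05 there were 0 E1 enzymes, 3 E2 enzymes, 0 HERC ligases, 7 USP proteases and 1 modifier. With so small a share of all features called, lists of these sizes would hold few calls, so nothing is read from the counts of 0. UBA1, the main E1 of ubiquitin, differed by -0.06 ± 0.10 where UBA7 was at least 1.5-fold higher on the background-corrected scale. HERC3, which lies close to HERC5 on chromosome 4, differed by 0.12 ± 0.13. Its means, 4.73 with ECD and 4.61 with ICD, were near background, so little can be read from this difference. UBA7 was below background with Full at a mean of 4.63. With Full against ECD, where 10.2% of all features were called lower, some relatives fell, 13 of the 30 USP proteases (the 4 with the smallest adjusted p were USP15 at -0.79, USP8 at -0.60, USP13 at -0.41 and USP34 at -0.45), 2 of 4 HERC ligases (HERC4 at -0.67 and HERC1 at -0.31), 1 of 6 E1 enzymes (NAE1 at -0.44) and 4 of 23 E2 enzymes, among them UBE2J1 (-0.48), while the E2 enzyme CDC34 was higher (0.43). Other modifiers had 0 of 8 called, and 1 at an unadjusted p under 0.05. The list medians were -0.26 for the USP proteases and 0.01 for the modifiers.

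Some ubiquitin proteases have been reported to react with ISG15. Of 5 tested among 6 listed, 0 were called in limma between ECD and ICD and 1 had an unadjusted p under 0.05 (median -0.06), where USP18 differed by 2.38. USP13 and USP14 were lower with Full than with ICD by 0.44 ± 0.09 and 0.45 ± 0.10 (log2, SE, limma adjusted p = 0.02 and 0.027), while USP18 was higher by 0.90. Against ECD both fell with Full, by 0.41 and 0.39, and USP16 by 0.72 (adjusted p = 0.0099, 0.021 and 0.015). Of all features 2.99% were called lower with Full than with ICD. ITGB2 and ITGAL, subunits of the integrin reported as a receptor of secreted ISG15, gave 1 tested gene, with 0 calls in limma in these 3 comparisons, adjusted or not.

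**Figure D4:**
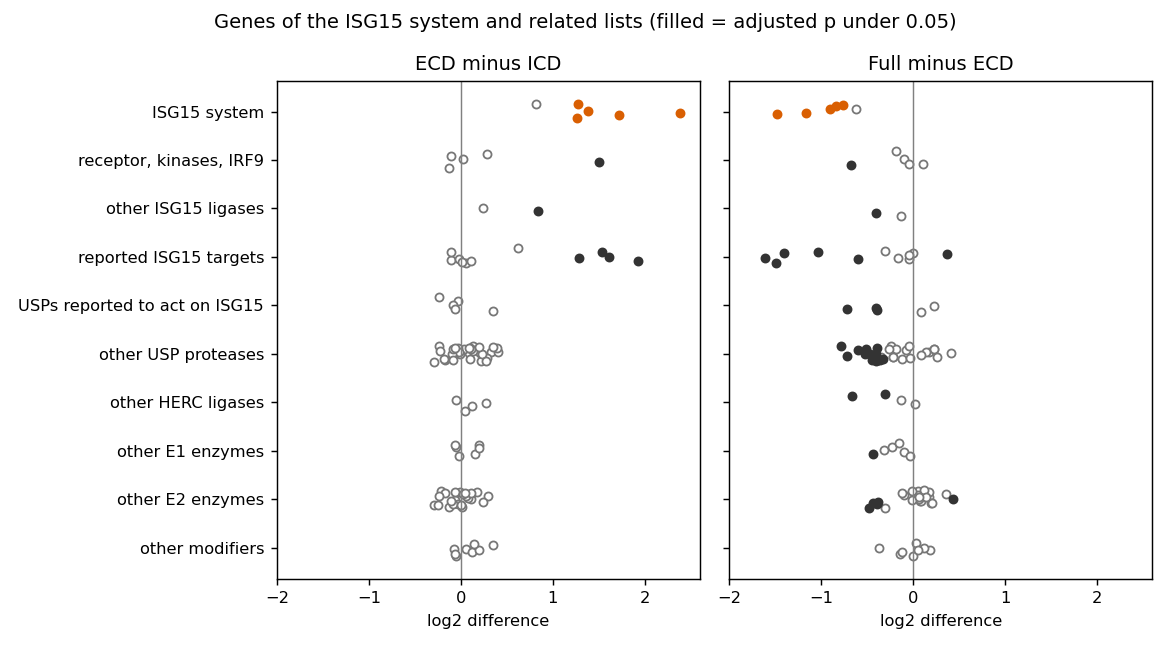
Log2 differences (horizontal axis) for ECD minus ICD and Full minus ECD of the 6 members (top row) and of the tested genes of 9 related lists, 1 point per gene with a small vertical scatter; filled points had an adjusted p under 0.05, and UBA7, not tested, is open. For ECD minus ICD the filled points outside the top row are IRF9, TRIM25 and 4 reported targets, of which MX1 is a description only. For Full minus ECD several USP proteases are filled below 0.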

How the data were processed

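Sample titles gave each array's group and replicate number. The members, lists and rules were chosen with earlier results of these data known. The deposited table holds a linear intensity per probe and array, with background not subtracted as its values show, and a detection p-value against negative controls, per the file headers. Per the labels' protocols, RNA was amplified and biotin-labelled; how beads were summarised is not given here. A second table from the authors holds log2 values with no stated method; these matched quantile-normalized log2 intensities within 5e-09. No batch is given in the files.

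Probes were named from the platform annotation (30113 with 1 symbol, 8 with several, 17202 with none). Of these, 30074 matched the RefSeq table by Entrez identifier and 0 symbols changed. The R 4.3.3 package limma 3.58.1 (neqc) transformed the intensities (normexp from detection p, offset 16, quantile normalization, log2). A probe entered if all 3 arrays of any group had a detection p under 0.05 (18728 probes), and the brightest stood for each symbol, leaving 15338 features. Contrasts came from 1 limma fit over 12 arrays with eBayes, two-sided, Benjamini-Hochberg over all features. The offset shrinks differences of dim probes. Named genes were the members, the 2 nearest features to each, up to 4 called genes of each list between constructs, and fixed partners. Other listed genes with a tested probe enter the counts and medians. The fit was tested on simulated data. Alternatives covered background, offset, scaling, filter, probe choice, variance model, weights, fitted arrays, threshold, replicate block and each array left out. Array pairs with identical values numbered 0. Figures used matplotlib 3.10.9 under Python 3.11.15.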

Additional observations from a re-analysis of the deposited data

How the results depend on the processing

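The counts of members called were recomputed under 25 alternatives (24 for the departure of Full from the sum of ECD and ICD, which needs all groups). These counts include UBA7, which entered through ECD alone, and those against Empty are descriptions. For ECD against ICD, Full against ECD and ECD against Empty the count stayed at 6 in each alternative run. It ranged from 3 to 4 for ICD against Empty, 4 to 5 for Full against Empty, and 5 to 6 for the departure from the sum. For Full against ICD it ranged from 1 to 4, with 3 in the fit as designed, 1 with only the arrays of the groups compared, and 2 to 3 with 1 array left out. Among the recomputed member differences 1024 stayed on their side of the threshold (those of UBA7 between ICD and Empty, at -0.08 to 0.08, have no fixed sign), 11 were no longer called and 9 became called. HERC6 with Full against ICD became called without background correction or with the authors' log2 values (0.36), with offset 50 (0.42), and with array weights (0.61). The variance model with trend and robust settings called it too (0.48). Replicate numbers did not pair the arrays: 1 of 18 same-numbered pairs had a correlation of deviations above 0.1 (-0.085 to 0.12). With the replicate block the counts of members were 6 for ECD against ICD, 6 for Full against ECD and 3 for Full against ICD, and calls over all features were 247, 2812 and 670, against 262, 2802 and 767 without it. With 1 array left out, calls over all features ranged from 139 to 341, 1532 to 3731 and 188 to 1624. Median scaling gave 300, 3156 and 289. UBA7 was below background outside ECD, so its differences between Full, ICD and Empty could not be read.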
